A study of Sus scrofa with 20 samples.

Results

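Enzymes that build mevalonate and carry it to cholesterol were followed in backfat and liver of Nanchukmacdon pigs. The 9 genes were given by name, in pathway order, as HMGCS1, MVK, PMVK, MVD, FDPS, FDFT1, SQLE, CYP51A1 and DHCR7. No measured value entered the rule that named them, although earlier results of these data were known. They were matched by symbol to pig Ensembl identifiers, and 8 of the 9 had a row among the 31907 genes that were counted. PMVK, phosphomevalonate kinase, has the identifier ENSSSCG00000055689 in the name table and no row in the counts, so no expression is given for it. All 8 others passed the filter on low counts.

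Cholesterol is built from acetyl-CoA in a chain of reactions. Acetyl units are first built into mevalonate, a set of kinases and a decarboxylase turn it into isoprene units, prenyl transferases join these into farnesyl diphosphate, squalene synthase commits the chain to sterols, and the ring is then closed and trimmed by demethylases, isomerases and reductases. The genes of the chain are classic targets of the transcription factor SREBP-2, which is released from the endoplasmic reticulum when sterols run low. Liver is a main organ of cholesterol synthesis and export, whereas adipose tissue is known mainly as a store of cholesterol.

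Backfat, the subcutaneous fat of the back, and liver were taken from 5 boars that the labels describe as 22 months old, wild type and of normal disease state, with no treatment. The study's own text gives another average age. RNA of each tissue was sequenced as poly(A) mRNA, with 5 libraries from each tissue (10 together). Libraries are named here by tissue and by the number in the column headings (65, 67, 69, 71 and 72), which was read as the boar. Another 10 libraries of the series hold bisulfite sequencing, whose calls carry no genomic position, so methylation at these genes was not analysed here. Both tissues were sampled in bulk, and a lower level of a gene in bulk tissue cannot be told apart from fewer cells that express it.

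Each library held between 43820042 and 61772737 counts. Every adipocyte marker on the list used here (6 of 6) was higher in backfat and every hepatocyte marker (8 of 8) was higher in liver. The macrophage list had 4 of 6 markers higher in liver, and both measured endothelial markers were higher in backfat. Of all 16275 genes tested, 27% were higher in liver and 28% in backfat at a false discovery rate of at most 0.05. The liver library of boar 67 stood apart from the other liver libraries, with 44.5% of its counts on 13 protein-coding genes of the mitochondrial genome against 6.38% to 20.2% in the others. Its summed hepatocyte markers were 27700 normalised CPM against 76700 to 99300. Its skeletal muscle markers summed to 123 CPM of all counts against 0.307 to 1.26 in the other liver libraries, and its red cell markers to 1240 against 61.7 to 278. The backfat library of boar 69 held 36.3 CPM of ALB, the albumin gene of hepatocytes, against at most 0.351 CPM in the other backfat libraries. Results were therefore also calculated without these 2 libraries.

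The promoters of 3 members are shown for their contrasts in CCAAT and TCACNCCAC among the 8 member promoters searched. HMGCS1 is the only one of these with a match to TCACNCCAC, a form of the sterol regulatory element, the kind of site that SREBP binds. Other forms of the element were not searched, so promoters without this match may still hold one. MVD has CCAAT in a repeated stretch, and CYP51A1 has no CCAAT. Each sequence is the 250 bases before the RefSeq gene start on Sscrofa11.1, read 5′ to 3′ on the strand of the gene. Capitals mark CCAAT, the core of sites bound by NF-Y, or its reverse complement ATTGG, and in HMGCS1 also the match to TCACNCCAC. The regions are chr16:27957262-27957511 (minus strand) for HMGCS1, chr6:1007850-1008099 (plus strand) for MVD and chr9:72079588-72079837 (minus strand) for CYP51A1.
HMGCS1: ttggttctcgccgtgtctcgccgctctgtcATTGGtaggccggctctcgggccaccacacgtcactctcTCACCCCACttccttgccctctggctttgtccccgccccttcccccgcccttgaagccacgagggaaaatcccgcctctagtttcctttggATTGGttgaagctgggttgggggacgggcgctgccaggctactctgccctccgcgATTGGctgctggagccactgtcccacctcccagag
MVD: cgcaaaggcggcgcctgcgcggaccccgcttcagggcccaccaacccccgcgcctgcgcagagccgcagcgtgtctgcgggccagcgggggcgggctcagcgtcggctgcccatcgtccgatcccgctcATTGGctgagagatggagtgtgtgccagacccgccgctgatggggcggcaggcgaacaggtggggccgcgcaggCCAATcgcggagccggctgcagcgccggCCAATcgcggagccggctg
CYP51A1: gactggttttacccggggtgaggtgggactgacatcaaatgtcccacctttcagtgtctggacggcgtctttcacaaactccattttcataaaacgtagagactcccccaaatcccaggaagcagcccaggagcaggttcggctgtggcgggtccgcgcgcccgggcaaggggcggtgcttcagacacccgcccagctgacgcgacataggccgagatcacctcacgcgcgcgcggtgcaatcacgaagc

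The letters were searched on both strands from 250 bases before to 50 bases after the start, and a match is a description of the sequence and not of binding. CCAAT was found in 7 of the 8 member promoters, against 35.4% of 19533 promoters of protein-coding genes. TCACNCCAC was found in 1 of 8, HMGCS1, against 0.911% of all promoters. GGGCGG, a GC box, was found in 7 of 8 against 50.6%, and CACGTG, an E-box, in 1 of 8, PMVK, against 7.92%. In HMGCS1 the sterol element began 181 bases before the start, and the next CCAAT towards the start, on the minus strand, began at 90 bases. Among 9 other enzymes of the pathway with a matched promoter, CCAAT was found in 8, TCACNCCAC in none, the GC box in 8 and the E-box in 1. HMGCS1, with the match to TCACNCCAC, had a log2 fold change of backfat over liver of -2.81, inside the range of the members, -4.44 to -1.83. CYP51A1, without CCAAT, had -2.75.

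All 8 measured members were expressed at a higher level in liver than in backfat. Fold changes were taken from edgeR's quasi-likelihood test across 16275 genes, and a gene was called at a false discovery rate (FDR) of at most 0.05. All 8 members passed in the liver direction and 0 in the backfat direction, while 27% of all tested genes were called in the liver direction and 28% in the backfat direction. When a log2 fold change of at least 2 was also required, the definition of a differentially expressed gene (DEG) used by the study, 6 of 8 members were DEGs in the liver direction, against 11.2% of all genes, and 0 in the backfat direction, against 11.1%. MVD and FDPS lay inside the fold threshold. The median log2 fold change of backfat over liver was -2.58 over the members and 0 over all genes tested. When libraries were scaled by their totals alone, which moved the median of all genes by 0.715 towards backfat, all 8 members were still called higher in liver, beside 14.3% of all genes, and 3 were DEGs, beside 8.23%. Without liver 67 and backfat 69 all 8 were called, beside 27.7% of all genes, and 7 were DEGs, beside 11.2%. edgeR's glmTreat, which tests against a change of 1 on the log2 scale, also called all 8. The share of all genes that it called is not given here.

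**Figure D1:**
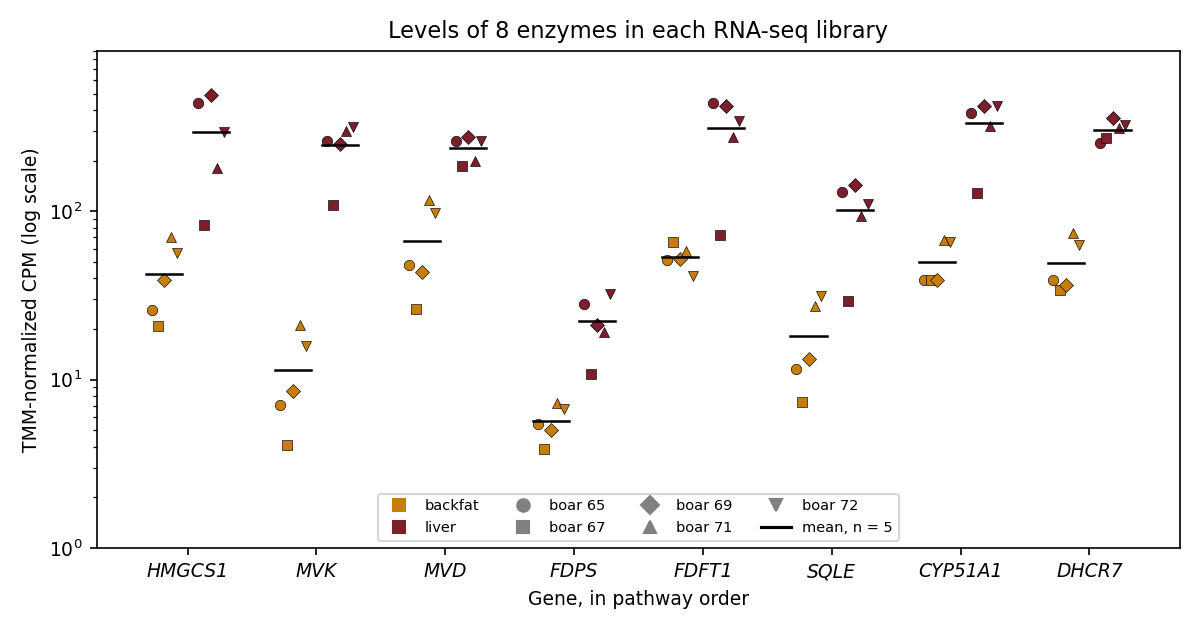
Levels of the 8 measured enzymes in TMM-normalised CPM on a log axis, 1 point per library with the shape giving the boar and the colour the tissue; black lines are means of 5 libraries. Liver points lie above backfat points for every gene except SQLE, where liver 67 at 29.3 CPM falls below backfat 72 at 31.4 CPM. The share of all tested genes without overlap is not given here.

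HMGCS1 (ENSSSCG00000016872, chr16:27936225-27957261, minus strand) encodes the cytosolic HMG-CoA synthase, which condenses acetyl-CoA with acetoacetyl-CoA. In backfat its level was 26.0 CPM in boar 65, 20.9 in boar 67, 39.3 in boar 69, 70.1 in boar 71 and 56.6 in boar 72. In liver it was 441, 83.0, 488, 180 and 295 CPM in the same order of boars. The groups did not overlap, although liver 67 came close to backfat 71. Backfat averaged 42.6 ± 20.7 CPM and liver 298 ± 171 CPM (SD, n = 5 each), a 6.99-fold higher level in liver (log2 fold change -2.81, standard error 0.49, FDR = 0.00036). Of the 50-base windows of its RefSeq exons, 2.74% recurred elsewhere in the genome, and the share was 0 for every other measured member. Reads from such windows may have been left out of the HMGCS1 count. The gene models used for counting differ from RefSeq, most of all for FDPS (below), so these windows do not cover all counted bases.

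MVK (ENSSSCG00000009931, chr14:41320790-41357437, minus strand) encodes mevalonate kinase, the first of the kinases that act on mevalonate. Its backfat levels were 7.06, 4.09, 8.61, 21.2 and 15.9 CPM in boars 65, 67, 69, 71 and 72. Its liver levels were 261, 109, 250, 301 and 317 CPM. The lowest liver library was thus well above the highest backfat library. MVK had the largest difference of the members, 21.8-fold, from 11.4 ± 7.02 CPM in backfat to 248 ± 82.2 CPM in liver (SD, n = 5 each, log2 fold change -4.44, standard error 0.47, FDR = 6.19e-06).

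MVD (ENSSSCG00000034905, chr6:1008100-1014303, plus strand) encodes the decarboxylase that yields isopentenyl diphosphate. Backfat levels were 47.8, 26.2, 43.4, 117 and 97.8 CPM in boars 65, 67, 69, 71 and 72, and liver levels were 263, 186, 276, 198 and 262 CPM. The spread lay in backfat, where the highest library was 4.48 times the lowest, against 1.48 times in liver. Liver was 3.56-fold higher (log2 fold change -1.83, standard error 0.37, FDR = 0.00102), the smallest difference of the 8. Without backfat 71 its log2 fold change was -2.13, past the DEG threshold.

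FDPS (ENSSSCG00000006512, chr4:94500140-94514820, minus strand) encodes farnesyl diphosphate synthase, which joins isoprene units into the precursor of sterols and of prenyl groups. Backfat levels were 5.46, 3.87, 5.04, 7.26 and 6.67 CPM in boars 65, 67, 69, 71 and 72. Liver levels were 28.0, 10.8, 21.0, 19.2 and 32.2 CPM, all above backfat. The difference was 3.93-fold (log2 fold change -1.97, standard error 0.29, FDR = 8.04e-05). FDPS had the lowest CPM of the members in both tissues, and the gene model used for counting has 6335 exonic bases while the RefSeq model has 1563.

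FDFT1 (ENSSSCG00000026044, chr14:14976259-15010701, plus strand) encodes squalene synthase, the first step committed to sterols. It was 51.2, 65.4, 52.4, 58.3 and 41.1 CPM in backfat of boars 65, 67, 69, 71 and 72, the narrowest spread of the members in that tissue. Liver levels were 442, 72.8, 423, 278 and 342 CPM, so that liver 67 stood little above backfat. Over all libraries liver was 5.80-fold higher (log2 fold change -2.54, standard error 0.39, FDR = 0.000144). Without liver 67 its log2 fold change was -2.82.

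SQLE (ENSSSCG00000005970, chr4:14669789-14700152, minus strand) encodes squalene epoxidase, which adds the first oxygen of the sterol. Backfat levels were 11.6, 7.35, 13.2, 27.2 and 31.4 CPM in boars 65, 67, 69, 71 and 72, and liver levels were 131, 29.3, 144, 94.1 and 110 CPM. It was the one member whose tissues overlapped, through liver 67. Liver was 5.61-fold higher (log2 fold change -2.49, standard error 0.47, FDR = 0.000648).

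CYP51A1 (ENSSSCG00000015311, chr9:72057506-72079587, minus strand) encodes the demethylase that removes the 14-alpha methyl group of lanosterol. In backfat it was 39.2, 38.8, 39.0, 67.4 and 65.7 CPM in boars 65, 67, 69, 71 and 72, and in liver 383, 128, 423, 322 and 422 CPM. The backfat libraries fell into 3 near-equal values and a higher pair from boars 71 and 72. Liver was 6.71-fold higher (log2 fold change -2.75, standard error 0.34, FDR = 2.07e-05).

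DHCR7 (ENSSSCG00000021181, chr2:2377352-2391846, plus strand) encodes 7-dehydrocholesterol reductase, which makes cholesterol in the last step of one arm of the pathway. Its levels were 38.8, 34.1, 36.5, 74.4 and 63.0 CPM in backfat of boars 65, 67, 69, 71 and 72, and 255, 271, 357, 313 and 327 CPM in liver. Liver 67 was not the lowest liver library here, unlike for the other 7 members. The difference was 6.17-fold (log2 fold change -2.63, standard error 0.26), and its FDR of 3.15e-06 was the lowest among the members.

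Comparing the tissues of 1 boar at a time, liver was higher in 5 of 5 boars for each of the 8 genes. This restates the tissue difference boar by boar, and the share of all tested genes with this pattern is not given here. For MVK the ratio of liver to backfat ran from 14.2 in boar 71 to 36.8 in boar 65. For MVD it ran from 1.69 in boar 71 to 7.10 in boar 67. Boar 71 had the smallest ratio for 6 of the 8 genes, HMGCS1, MVK, MVD, FDPS, SQLE and DHCR7. For FDFT1 and CYP51A1 boar 67 had the smallest, 1.11 and 3.30. The ratio of FDFT1 in that boar joins a low liver value with the highest backfat value.

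**Figure D2:**
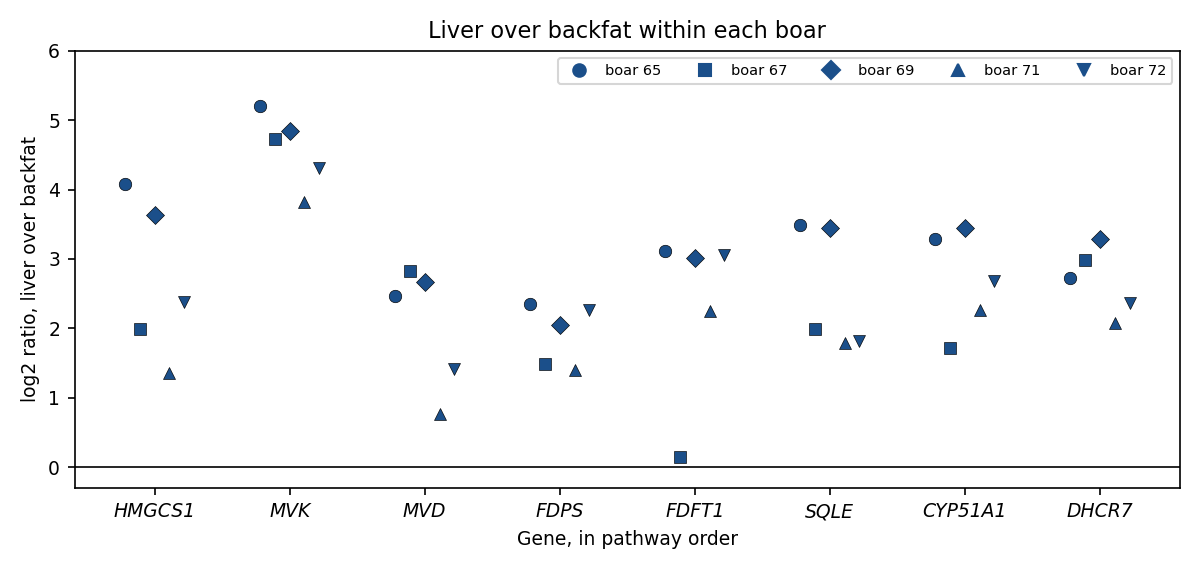
Log2 ratio of liver to backfat within each boar for the 8 enzymes, 1 point per boar; the line at 0 marks equal levels. MVK lies highest, from 3.82 to 5.20, and the FDFT1 point of boar 67, at 0.15, is the lowest.

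The fold changes of the members were compared with each other through the log2 ratio of each pair of genes within a library, which does not depend on the scaling of libraries. All 28 pairs were tested by a two-sided exact permutation test over 252 arrangements of the 10 libraries, whose smallest p is 0.00794, with Benjamini-Hochberg adjustment over the 28. The test passed for 8 pairs, and MVK was in 7 of them. MVK differed between tissues more than every other member, by between 1.89 on the log2 scale against HMGCS1 and 2.68 against FDPS (exact permutation test, adjusted p = 0.0278 in each case). The other pair was FDPS and CYP51A1, which differed by 0.77 (exact permutation test, adjusted p = 0.0278). With each library left out in turn, the comparisons of MVK with MVD, FDPS, SQLE and CYP51A1 passed every time. Those of MVK with HMGCS1, FDFT1 and DHCR7 passed 7, 6 and 6 of 10 times, with differences between 1.68 and 2.54, and that of FDPS with CYP51A1 passed 8 of 10 times. None of the 20 other pairs passed over all 10 libraries, which at this sample size does not show that they were equal. Of these, HMGCS1 with MVD, MVD with SQLE, MVD with DHCR7 and FDPS with DHCR7 passed 1 of 10 times with a library left out. The difference between HMGCS1 and FDFT1, which never passed, ran from 0.08 to 0.60. This test treats the libraries as unpaired, although each boar gave both tissues. Within boars, MVK differed from each of the other 7 members in the same direction in 5 of 5 boars, as FDPS did from CYP51A1, but an exact sign-flip permutation test over 5 boars cannot go below p = 0.0625, which was its value for all 8 pairs, so that none passed when paired.

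Levels of different genes were compared per kilobase of the gene model used for counting. In liver DHCR7 came first with 149 ± 20.2 CPM per kb (SD, n = 5), followed by CYP51A1 with 130 ± 47.5 and MVD with 62.3 ± 10.9. HMGCS1, FDFT1, SQLE and MVK then followed at 53.6 ± 30.8, 37.3 ± 17.8, 36.4 ± 16.0 and 30.8 ± 10.2 CPM per kb. Each gene of this order overlapped the next in range, except that MVK lay wholly above FDPS, the last, at 3.51 ± 1.30. In backfat DHCR7, CYP51A1 and MVD also led, with 24.2 ± 8.90, 19.3 ± 5.83 and 17.5 ± 10.2 CPM per kb. HMGCS1, SQLE and FDFT1 lay between 6.42 and 7.67 on average. MVK at 1.42 ± 0.873 and FDPS at 0.894 ± 0.212 came last, below the range of FDFT1. The order depended on the length used, since gene models differ. With the coding length of the RefSeq gene, MVK moved to the fourth place in liver at 209 ± 69.5 CPM per kb, FDFT1 to the second place in both tissues and DHCR7 to the third place in both, and FDPS kept the last place in both. With the longest RefSeq transcript FDPS was last in liver, while in backfat MVK was last at 3.39 ± 2.09 and FDPS next to last at 3.83 ± 0.907 CPM per kb (SD, n = 5).

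The spread between libraries of a tissue was described by the SD of log2 CPM, with no test. Over the 5 backfat libraries its median was 0.622 over the members and 0.329 over all tested genes, whose upper quartile was 0.505. In liver the median was 0.677 over the members and 0.483 over all genes, whose upper quartile was 0.752. Without liver 67 the order turned, with a median of 0.244 over the members and 0.373 over all genes. MVK, MVD and SQLE were the most variable in backfat, with SDs of 0.942, 0.889 and 0.875. FDFT1 and HMGCS1 were the most variable in liver, with 1.07 and 1.05, while DHCR7 had 0.198 and MVD 0.263 there. FDFT1, the least variable member in backfat with 0.25, owed its place in liver to liver 67, since its SD was 0.308 over the other 4 libraries. HMGCS1 then stayed at 0.654, the highest, and SQLE, MVK and CYP51A1 were at 0.271, 0.163 and 0.185.

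In each tissue most members shared their highest or lowest libraries. In backfat boars 71 and 72 gave the 2 highest levels for 7 of 8 members, and boar 67 the lowest for the same 7. FDFT1 was the exception, highest in boar 67 and lowest in boar 72. In liver boar 67 was lowest for 7 of 8 members, all but DHCR7, and boar 69 was highest for 5. Of the 11 other enzymes listed below, 9 had boars 71 and 72 highest in backfat, and 5 had boar 67 lowest there. In liver 8 of the 11 had boar 67 lowest. The share of all tested genes with these orders is not given here. The summed level of the members was 227, 201, 237, 443 and 378 CPM in backfat of boars 65, 67, 69, 71 and 72, and 2200, 890, 2380, 1710 and 2110 CPM in liver. The highest sums came from boars 71 and 72 in backfat and from boars 69 and 65 in liver. In backfat 71 and 72 the measured skeletal muscle markers summed to 34.4 and 13.4 CPM of all counts against 152 to 588 in the other backfat libraries, and mitochondrial genes took 12.3% and 12.5% of the counts against 7.20% to 15.7%. The summed endothelial markers were 749 and 590 CPM of all counts against 968 to 1160, the lymphocyte markers 17.1 and 20.6 against 25.9 to 59.1, and the adipocyte markers 16500 and 14600 against 16400 to 20600. The 6 adipocyte markers did not share a direction. ADIPOQ, the adiponectin gene of adipocytes, was at 2720 and 2250 normalised CPM against 3820 to 4840. PLIN1 was also lower, at 1040 and 853 against 1350 to 1450. LPL was higher, at 4320 and 3270 against 2830 to 3090, while FABP4, LEP and CIDEC overlapped the other backfat libraries. The part of these make-up differences, and of the mitochondrial share and the muscle and red cell markers of liver 67, in the levels of the members was not tested.

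**Figure D3:**
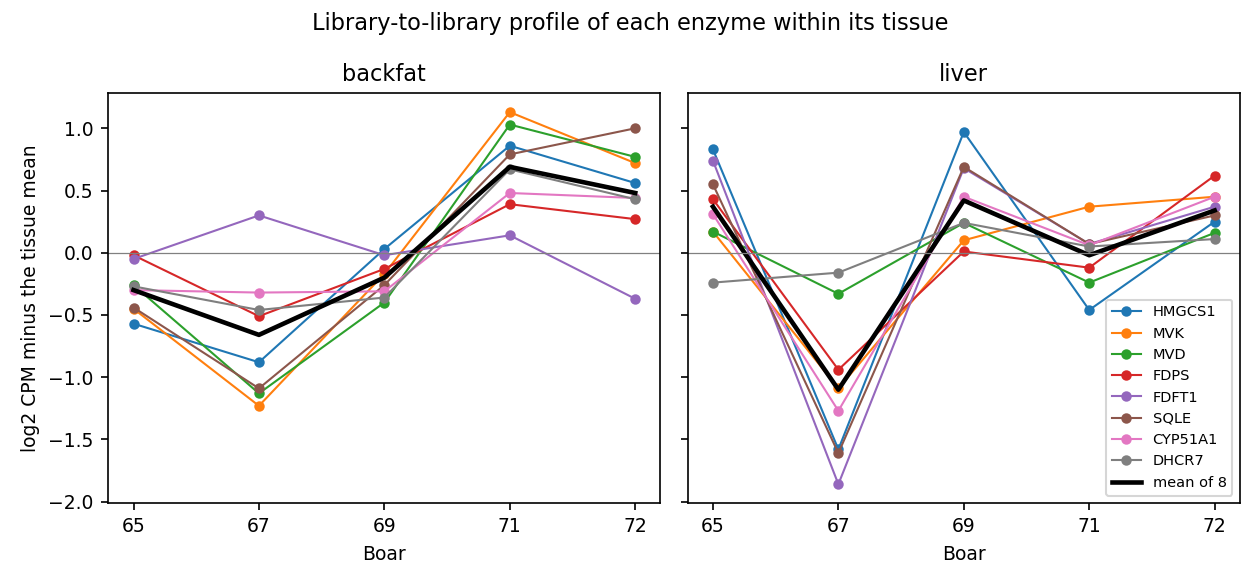
Log2 CPM of each enzyme minus its mean in the tissue, for the 5 boars in backfat (left) and liver (right); thin lines are genes, the thick line is the mean of the 8, and lines join libraries only to guide the eye. In backfat boars 71 and 72 lie high for all but FDFT1, and in liver boar 67 lies low, at -1.10 for the mean, while DHCR7 lies at -0.16 and MVD at -0.33.

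The likeness of these profiles was described by Pearson's r over the 10 libraries after each tissue was centred on its mean. Libraries of a tissue share their depth and make-up across all genes, so no p is given. Each member was set against the mean of the other 7, and r was 0.976 for SQLE, 0.949 for CYP51A1, 0.927 for HMGCS1, 0.889 for MVK, 0.888 for FDPS, 0.757 for MVD, 0.674 for DHCR7 and 0.549 for FDFT1. Without liver 67, over 9 libraries, FDFT1 had -0.185 and the other members between 0.763 and 0.980. Among 12732 other tested genes with a symbol, the 5 most like the mean of the members were MDH2, SREBF2, AACS, COQ9 and KIFAP3, with r between 0.979 and 0.991. MDH2 is mitochondrial malate dehydrogenase, SREBF2 encodes SREBP-2, AACS makes acetoacetyl-CoA in the cytosol, COQ9 serves coenzyme Q synthesis and KIFAP3 is a subunit of a kinesin motor. Their r was between 0.963 and 0.981 without liver 67, where they took places 4, 11, 13, 9 and 14 so that MDH2 alone stayed among the first 5, and between 0.944 and 0.969 without the 2 libraries farthest from the median, liver 67 and backfat 67. Their tissue differences did not share a direction, since SREBF2 favoured liver (log2 fold change -1.79, FDR = 7.37e-05) and AACS favoured backfat (1.71, FDR = 0.00341).

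Other enzymes of the chain were read from a list of 11 genes, all of which were tested. Of these, 7 were called higher in liver, of which 5 were DEGs, 1 was called higher in backfat, and 3 did not pass. Over all tested genes, 27% were called higher in liver and 28% in backfat, and 11.2% and 11.1% were DEGs. Their median log2 fold change was -1.68. Without liver 67 a further enzyme, ACAT2, passed (log2 fold change -1.14, FDR = 0.00884).

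**Figure D4:**
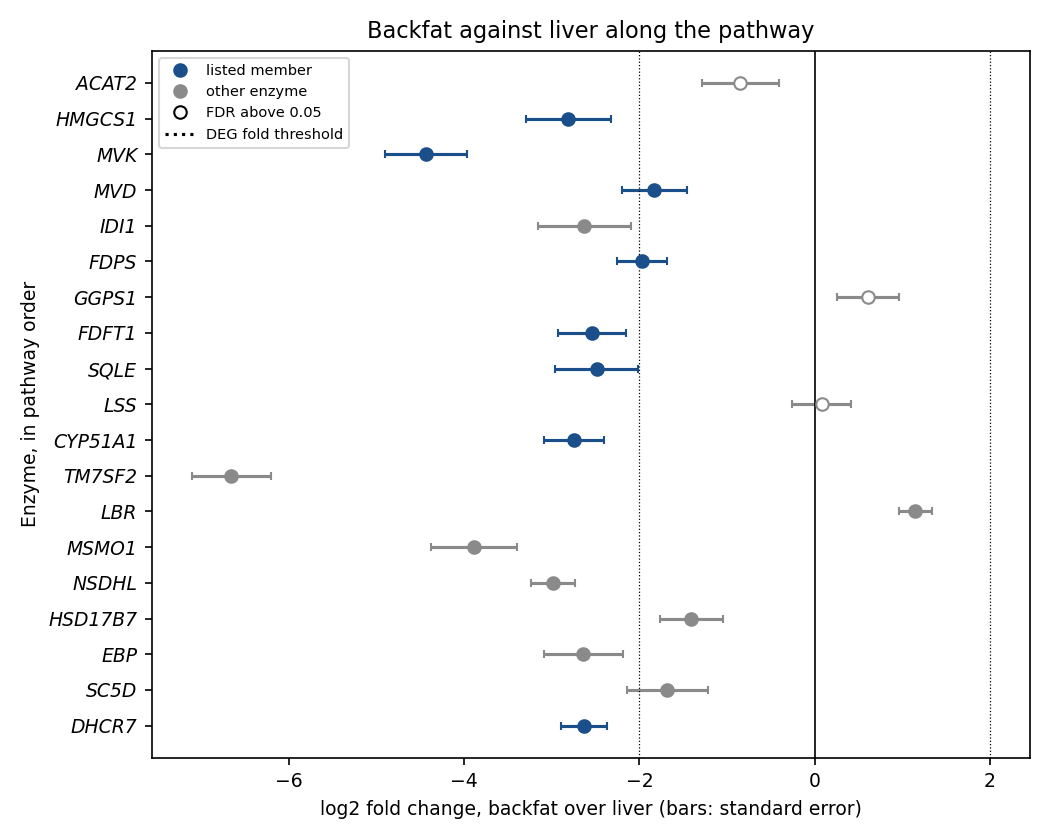
Log2 fold change of backfat over liver with its standard error for 19 enzymes from acetyl-CoA (top) to cholesterol (bottom); members are blue, other enzymes grey, open points did not pass the FDR of 0.05 and dotted lines mark the fold threshold for DEGs. Values left of 0 are higher in liver; LBR at 1.15 is the one called enzyme to the right.

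In the earlier part of the chain, IDI1, the isomerase of isopentenyl diphosphate, was 6.21-fold higher in liver (FDR = 0.00107). ACAT2, the cytosolic thiolase at the entry, averaged 33.2 ± 10.4 CPM in backfat and 60.1 ± 36.0 CPM in liver (SD, n = 5 each) and did not pass (FDR = 0.119). ACAT2 overlaps TCP1 on the opposite strand, and the counting did not use strand. GGPS1, which lengthens farnesyl diphosphate towards protein prenylation, did not pass either, averaging 4.97 ± 0.422 CPM in backfat and 3.25 ± 1.60 CPM in liver (SD, n = 5 each, FDR = 0.157).

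LSS, lanosterol synthase, closes the ring between the steps of SQLE and CYP51A1 and had the smallest difference between the tissues among the 19 enzymes. It was 254, 240, 168, 457 and 418 CPM in backfat of boars 65, 67, 69, 71 and 72, and 395, 128, 318, 279 and 339 CPM in liver. The ranges overlapped widely, and its log2 fold change was 0.08 with a standard error of 0.34 (FDR = 0.865). Its neighbours SQLE and CYP51A1 were 5.61-fold and 6.71-fold higher in liver.

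The reduction of the sterol at carbon 14 can be done by either of 2 enzymes, and these moved in opposite directions. TM7SF2 was 1.50, 1.54, 2.96, 4.16 and 4.27 CPM in backfat of boars 65, 67, 69, 71 and 72. In liver it was 208, 256, 184, 478 and 334 CPM, 101-fold higher (log2 fold change -6.66, standard error 0.45, FDR = 1.28e-07). LBR, the lamin B receptor of the nuclear envelope that carries the same activity, was 25.4, 19.3, 27.4, 17.7 and 15.4 CPM in backfat and 9.70, 11.1, 9.27, 9.35 and 7.94 CPM in liver. LBR was 2.22-fold higher in backfat (log2 fold change 1.15, standard error 0.19, FDR = 0.000245). Neither gene overlapped between tissues. Per kilobase, LBR was at 3.42 ± 0.836 and TM7SF2 at 1.87 ± 0.873 CPM per kb in backfat (SD, n = 5), whereas in liver TM7SF2 was at 189 ± 76.6 and LBR at 1.54 ± 0.182 CPM per kb (SD, n = 5).

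The 5 other listed enzymes of the later steps were all called higher in liver. MSMO1, a methyl oxidase, and NSDHL, a decarboxylating dehydrogenase, were 14.9-fold and 7.93-fold higher (FDR = 2.62e-05 and 7.70e-07). EBP, the sterol isomerase, was 6.22-fold higher (FDR = 0.000311). HSD17B7, a ketoreductase, and SC5D, a desaturase, were called with 2.65-fold and 3.21-fold differences (FDR = 0.00515 and 0.00763), short of the DEG threshold. Both overlapped between tissues, and both lost their call when libraries were scaled by totals alone. SC5D also overlaps a non-coding gene on the opposite strand.

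The regulators of the pathway were read from 7 genes, of which 6 were tested. Of these, 3 were higher in liver and 1 in backfat, beside 27% and 28% of all tested genes. Their median log2 fold change was -0.54. SREBF2 was 57.2, 44.8, 62.3, 84.1 and 86.9 CPM in backfat of boars 65, 67, 69, 71 and 72 and 259, 133, 273, 215 and 284 CPM in liver, without overlap. INSIG2 and INSIG1, which hold SREBPs back in the endoplasmic reticulum when sterols are plentiful, were higher in liver with log2 fold changes of -1.21 (FDR = 0.00253) and -0.97 (FDR = 0.0242). The call of INSIG1 was lost without any one of backfat 65, 67 or 69 or of liver 65 or 72, with log2 fold changes from -0.91 to -0.79. Scaling by library totals alone ended both calls, with -0.53 for INSIG2 (FDR = 0.165) and -0.30 for INSIG1 (FDR = 0.422). SREBF1, whose products act mainly on fatty acid synthesis, favoured backfat (log2 fold change 1.06, FDR = 0.0245), a call lost when liver 71 was left out (0.95, FDR = 0.0637). SCAP, the escort of SREBPs, also named after its value was seen, was at 9.46 ± 0.844 CPM per kb in backfat and 10.1 ± 0.893 in liver (SD, n = 5) and did not pass (FDR = 0.547). INSIG1, SREBF1 and INSIG2 are named after their values were seen.

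The branches that leave the chain were read from further lists, beside the 27% and 28% of all tested genes called in the liver and backfat directions. Of 12 genes for ubiquinone, dolichol and protein prenylation, 9 were tested, 0 were higher in liver, 2 were higher in backfat and the median log2 fold change was 0.02. The 2 were DOLK, dolichol kinase, with 0.76 (FDR = 0.00672), and PGGT1B, a geranylgeranyl transferase subunit, with 0.52 (FDR = 0.0219), the latter named after its value was seen. The call of PGGT1B was lost without backfat 72, liver 71 or liver 72, with log2 fold changes from 0.42 to 0.49. Of 8 genes for the degradation of sterol-making enzymes such as squalene epoxidase, 7 were tested, with 1 higher in liver and 1 in backfat and a median of -0.31. These were AUP1, with a log2 fold change of -1.53 (FDR = 1.67e-05), and RNF145, a ubiquitin ligase, at 0.75 (FDR = 0.00336), the latter again named after its value was seen. AUP1 is a lipid droplet protein that recruits a ubiquitin-conjugating enzyme. Without liver 67 the ligases RNF139 (-0.54, FDR = 0.00274) and MARCHF6 (-0.82, FDR = 0.0263) and the adaptor ERLIN2 (-0.43, FDR = 0.0315) also passed in the liver direction. So did PDSS2 of the ubiquinone branch (-0.71, FDR = 0.0109). With backfat 69 also left out, RNF139 (-0.52, FDR = 0.00737) and PDSS2 (-0.67, FDR = 0.0236) passed, while MARCHF6 and ERLIN2 did not. DHDDS of the dolichol branch then passed in the backfat direction (0.64, FDR = 0.0494).

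ACAT1, the mitochondrial thiolase, had a log2 fold change of -0.08 and did not pass, with levels of 98.2 ± 18.8 and 104 ± 44.1 CPM per kb in backfat and liver (SD, n = 5).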

How the data were processed

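RNA-seq counts of 5 backfat and 5 liver libraries were used. The authors used FastQC, Trimmomatic and HISAT2 (genome Sscrofa11.1), then featureCounts 2.0.1 on exons of Ensembl release 99 for read pairs without strand, and deposited raw counts per gene with an exon length. By default featureCounts drops multi-mapping reads and those shared between genes. The deposited tables of bisulfite calls were not used, since they carry no genomic position.

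The analysis ran in R 4.3.3 and edgeR 4.0.16: filterByExpr by tissue, TMM, and the quasi-likelihood test with tissue as the only term, adjusted by Benjamini-Hochberg over 16275 genes. Standard errors came from the fold change and the F statistic. Every adjusted p (FDR) beside a fold change is from this test. Log2 CPM used a prior count of 2. DESeq2 1.42.0, limma 3.58.1 (voom), other scalings, filters and left-out libraries were alternatives, and the fits were tested on simulated counts. P-values measure the spread between the 5 boars sampled per tissue. No pair of libraries agreed within sampling noise (at least 60.6 in chi-square per gene over 20 pairs).

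Columns were matched to tissues. The number in each column heading was read as the boar, since both tissues carry the same numbers and the study took its samples from 5 boars. Deviations from the tissue means correlated between the tissues of a boar at 0.049 to 0.238 across 16275 genes, which are not independent. Correlations between unlike numbers are not given here, so these values do not show that equal numbers mean the same animal. The boar as a block was an alternative.

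Symbols were matched to 15029 of 31907 identifiers. The genes named were all members, the other enzymes and ACAT1, the DEGs or else the lowest FDR of each other list, and the 5 genes most like the mean of the members. SCAP, and genes named for a changed call (RNF139, MARCHF6, ERLIN2, PDSS2, DHDDS, FNTB, MBTPS1, UBE2G2) or a library far from the others (NUS1), were chosen after their values were seen. A few genes of these lists, and the promoter of SQLE, are not reported here and enter no count of a list. The members and lists were chosen with earlier results of these data known, and the tests of pairs of members, within boars or not, and the spread without liver 67 were added after values were seen. Positions and promoters were read from the RefSeq annotation and genome of Sscrofa11.1 (250 bases before and 50 after the start), with Python 3.11.15, and figures were drawn with matplotlib 3.10.9.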

Additional observations from a re-analysis of the deposited data

Results flagged for a closer look

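Each gene and tissue was searched for a library far from the other 4 by Dixon's ratio, the gap to the nearest library over the whole range, with 0.710 as the limit, which chance passes in about 1 of 20 groups. Of 92 groups examined, 3 passed it. MSMO1 in liver of boar 67 was at 111 CPM against 563 CPM in the next lowest liver library, and SC5D in the same library was at 39.2 CPM against 201 CPM. NUS1, a subunit of the dolichol-forming prenyl transferase, was at 16.1 CPM in backfat of boar 65 against 19.3 CPM in the next lowest backfat library. None of the 8 measured members passed the limit in either tissue.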

How the results depend on the processing

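All 8 members were called higher in liver under each of 20 alternatives, and 6 to 8 were DEGs with a single library left out. Under 19 of these, 14.3% to 28.5% of all tested genes were called in that direction and 7.39% to 11.7% were DEGs. For glmTreat the share is not given here. Scaling by library totals alone gave the fewest, with 3 members and 3 other enzymes (of 5) as DEGs, and moved the split of all DEGs from 1819 higher in liver and 1814 in backfat to 1340 and 2874. That scaling also turned SCAP to 0.61, with a call in the backfat direction (FDR = 0.0127). GGPS1 (1.26, FDR = 0.0146) and COQ9 (0.69, FDR = 0.0153) gained a call in that direction. So did DHDDS and FNTB of the branches, the regulator MBTPS1 and UBE2G2 of the degradation list, with log2 fold changes of 0.85 to 1.05. Under that scaling 8225 of 16275 tested genes were called higher in backfat. Requiring 10 counts in every library left 13026 genes tested and 1854 DEGs of 3633, by its own construction. With the boar as a replicate block, 8 members were called and 7 were DEGs, and no call of a named gene changed, whereas 0 of the 8 called pairs of members could pass an exact test paired by boar. Leaving out 1 library gave 3716 to 3965 DEGs. DESeq2 called 8 members, with 6 DEGs, and limma-voom 8, with 7. The number of member pairs whose ratio differed, 8, was 5 to 9 with 1 library left out (5 without backfat 65 and without backfat 69), an alternative added after seeing the data. The cause of these changes was not tested. The spread between the 5 libraries of a tissue exceeded sampling noise on average over genes, and the part of depth in the precision was not tested.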
